A study of Mus musculus with 2 samples.

Results

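The 10 keratin genes *Krt5*, *Krt7*, *Krt8*, *Krt13*, *Krt14*, *Krt15*, *Krt17*, *Krt18*, *Krt19* and *Krt20*, which mark the layers of the urothelium, were followed in newborn mouse ureters after WNT secretion was blocked. They were taken by gene name, with every probe that carried one of these names, which gave 13 probes of the 39429 on the array and 10 of its 29924 gene names. Ureters of wildtype NMRI mice were explanted at postnatal day 0 and cultured on filter inserts for 18 h, either with 5 µM IWP-2 or with its solvent DMSO at a dilution of 1:1000. IWP-2 inhibits PORCN, the acyltransferase that lipidates WNT ligands before they are secreted. A first array compared an IWP-2 pool (red dye) with a control pool (green dye) of female ureters, and a second compared an IWP-2 pool (green dye) with a control pool (red dye) of male ureters. Each pool held several whole ureters, so that urothelium, lamina propria and smooth muscle contributed RNA together. Sex and dye orientation changed together between the arrays and cannot be told apart.

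Keratins are intermediate filament proteins of epithelial cells. A filament is built from pairs of an acidic type I chain and a basic type II chain, and the chains in use change with the cell's layer and state. In the urothelium, *Krt5* with *Krt14*, *Krt15* or *Krt17* is typical of basal cells next to the basement membrane, *Krt13* is found below the surface layer, *Krt20* marks superficial (umbrella) cells, and *Krt7*, *Krt8*, *Krt18* and *Krt19* are made in most or all layers. WNT ligands of the urothelium are among the signals that act on the neighbouring mesenchyme.

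The probes behind the results on *Krt15* and *Krt13* are shown because one gave the single keratin call and the others disagreed with each other. Each probe is 60 bases long, and positions are those of the array files (mm9). The *Krt15* probe A_55_P2006261 (chr11:99993331-99993390, minus strand) holds an open reading frame up to a stop codon, which is in capitals. *Krt13* probe 1, A_51_P307964 (chr11:99982471-99982530, minus strand), codes for the helix initiation motif at the start of the type I rod domain, in capitals, and *Krt13* probe 2, A_55_P2006296 (chr11:99980412-99980471, minus strand), does not.
*Krt15*: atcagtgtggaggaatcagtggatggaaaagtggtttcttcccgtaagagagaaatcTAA
*Krt13* probe 1: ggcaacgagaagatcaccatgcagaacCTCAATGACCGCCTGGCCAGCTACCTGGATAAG
*Krt13* probe 2: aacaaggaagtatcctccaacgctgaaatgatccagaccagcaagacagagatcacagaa
The motif was searched in the 3 forward frames of all 39429 probes and was found in 1 of them (0.00254%), *Krt13* probe 1. The helix initiation motif is shared among type I keratins, and whether other type I transcripts bound to this probe was not tested.

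On chromosome 11 the type I probes lay in the order *Krt20*, *Krt13*, *Krt15*, *Krt19*, *Krt14* and *Krt17*. The *Krt15* probe thus lay between those of *Krt13* and *Krt19*. The type II members *Krt5*, *Krt7* and *Krt8* and the type I member *Krt18* have their probes on chromosome 15.

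Of the 13 keratin probes, 1 rose with IWP-2 and 0 fell by limma (adjusted p under 0.05 over the 18403 probes whose signal averaged over 100 in the control pools, the IWP-2 pools or both). The probe that rose was that of *Krt15*, a type I keratin of basal cells. Among all probes tested, 0.228% were called higher and 0.543% lower. All 13 keratin probes were tested, 12 because their signal averaged over 100 in both conditions, and *Krt13* probe 2 only through the IWP-2 pools, where it was higher. At an unadjusted p under 0.05, 5 of these 12 probes were higher and 0 lower. *Krt13* probe 2 is left out of this count, since the filter depended on its change. Of the 18096 probes averaging over 100 in both conditions, 1270 were higher at that threshold. Among all probes tested, 7.48% were higher and 5.87% lower. The median log2 ratio of IWP-2 over control was 0.37 in the female and 0.02 in the male array for the keratin probes, against 0.00 and 0.00 for all probes tested. These keratin medians include *Krt13* probe 2. Over the 10 genes, each by its probe of highest mean signal, which leaves *Krt13* probe 2 out, the medians were 0.36 and -0.03. In whole ureters, a change in the number of urothelial cells and a change in keratin RNA per cell cannot be told apart.

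**Figure D1:**
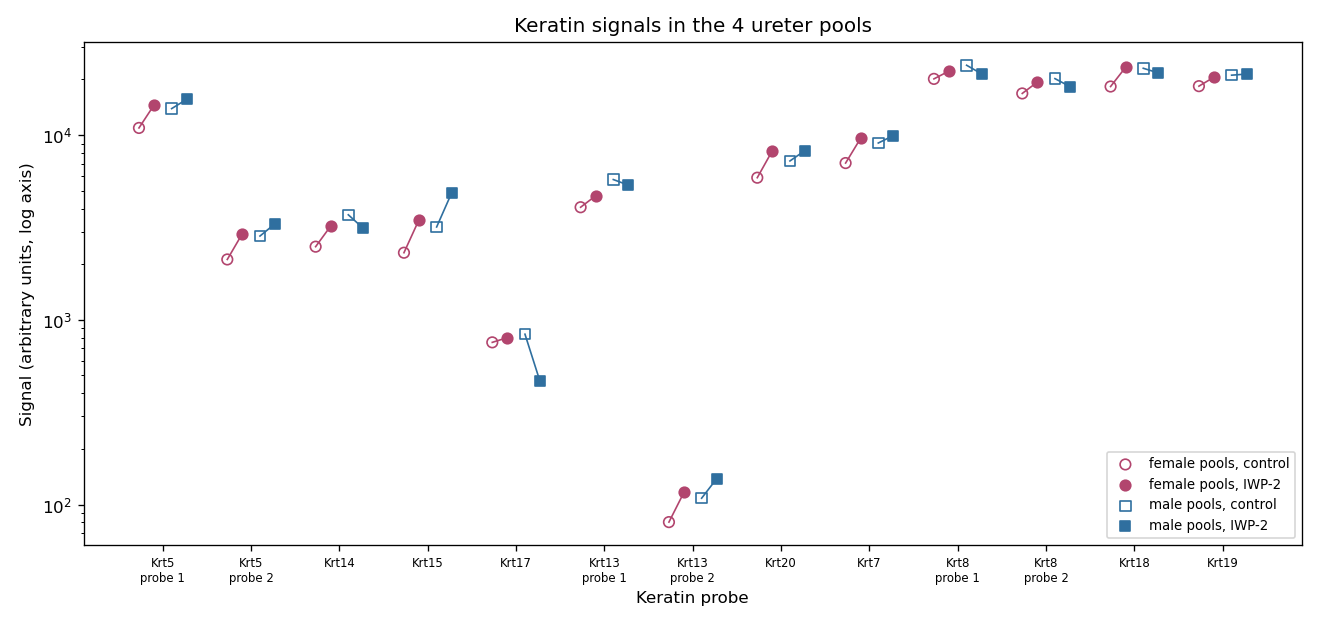
Signal of each keratin probe (arbitrary units, log axis) in the control pools (open symbols) and IWP-2 pools (filled symbols) of the female array (circles) and the male array (squares), with a line joining the 2 pools of an array and probe 1 and probe 2 marking genes with 2 probes. The *Krt15* line goes up in both arrays and the *Krt17* line runs down in the male array.

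*Krt15* gave a signal of 2307 in the female control pool, 3478 in the female IWP-2 pool, 3180 in the male control pool and 4862 in the male IWP-2 pool. Both IWP-2 pools lay above both control pools. The log2 ratio was 0.59 in the female and 0.61 in the male array, with a mean of 0.60 ± 0.01 (SD, n = 2), which is 1.52-fold, an SE of 0.07 and a limma adjusted p of 0.0230. All 4 spots of each array were higher with IWP-2, between 0.57 and 0.61 in the female and between 0.60 and 0.63 in the male array. By mean log2 ratio, *Krt15* ranked 71 from the top among the 18403 probes tested. *Krt15* was also the one keratin probe that passed the study's filter, which asks for a control signal above 100 and a change of at least 1.5-fold in each array, and 0.0779% of the 17961 probes with such a control signal passed it upwards. Its fold change was 1.507 in the female array, just above that threshold, and 1.529 in the male array. The call was lost when the ratios of each array were taken relative to the median of 14 pan-epithelial genes (mean log2 ratio 0.51, limma adjusted p = 0.0859), a setting chosen after the data were seen. It was also lost without the filter on dim probes, where limma called 0 probes of any gene (adjusted p of *Krt15* 0.386). The filter on probes well above background (limma adjusted p = 0.454) and 4 separate channels in place of ratios lost it too. In all, the call was lost in 4 of 12 other settings, with a highest limma adjusted p of 0.691.

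The other basal keratins did not pass the test. *Krt5*, the type II partner in basal cells, has 2 probes. Probe 1 of *Krt5* (A_51_P186856) read 10930 and 14527 in the female control and IWP-2 pools and 13907 and 15611 in the male control and IWP-2 pools. Probe 2 of *Krt5* (A_66_P116076) read 2122 and 2925 in the female control and IWP-2 pools and 2841 and 3311 in the male pools. Both probes were higher with IWP-2 in both arrays, and in both the highest control pool lay below the lowest IWP-2 pool. The mean log2 ratio was 0.29 ± 0.17 (SD, n = 2; limma adjusted p = 0.202) for probe 1 and 0.34 ± 0.17 (SD, n = 2; limma adjusted p = 0.149) for probe 2. Probe 2 is printed because it matches a probe of *Krt6b*, a type II keratin of stressed and squamous epithelia, at 38 of 47 bases, the closest match of any member probe to a probe of another keratin.
*Krt5* probe 2: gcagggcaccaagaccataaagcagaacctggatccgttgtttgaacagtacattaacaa
The *Krt6b* probe (A_51_P126275) read 477.9 and 524.9 in the female control and IWP-2 pools and 536.8 and 434.6 in the male pools. It had log2 ratios of 0.14 in the female and -0.30 in the male array, against 0.46 and 0.22 for *Krt5* probe 2. Its part in the signal of *Krt5* probe 2 was not tested. The other *Krt6b* probe read only 17.8 to 27.1 over the 4 pools, with log2 ratios of 0.55 and -0.22.

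*Krt14*, a type I partner of *Krt5*, read 2488 in the female control pool, 3214 in the female IWP-2 pool, 3702 in the male control pool and 3126 in the male IWP-2 pool. Control and IWP-2 pools overlapped. Its log2 ratio was 0.37 in the female and -0.24 in the male array, with a mean of 0.06 ± 0.43 (SD, n = 2; limma adjusted p = 0.970).

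*Krt17*, a type I keratin of basal cells and of injured or stressed epithelia, read 754.8 in the female control pool, 800.4 in the female IWP-2 pool, 835.7 in the male control pool and 464.5 in the male IWP-2 pool. The male IWP-2 pool stood apart from the other 3 pools. The log2 ratio was 0.08 in the female and -0.85 in the male array, the widest gap between the arrays among the 13 probes, and the mean was -0.38 ± 0.66 (SD, n = 2; limma adjusted p = 0.533). All 3 spots kept in the male array lay between -0.86 and -0.84, so the value of that array did not come from a single spot. The change of *Krt17* exceeded 1.5-fold in the male array and not in the female array.

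**Figure D2:**
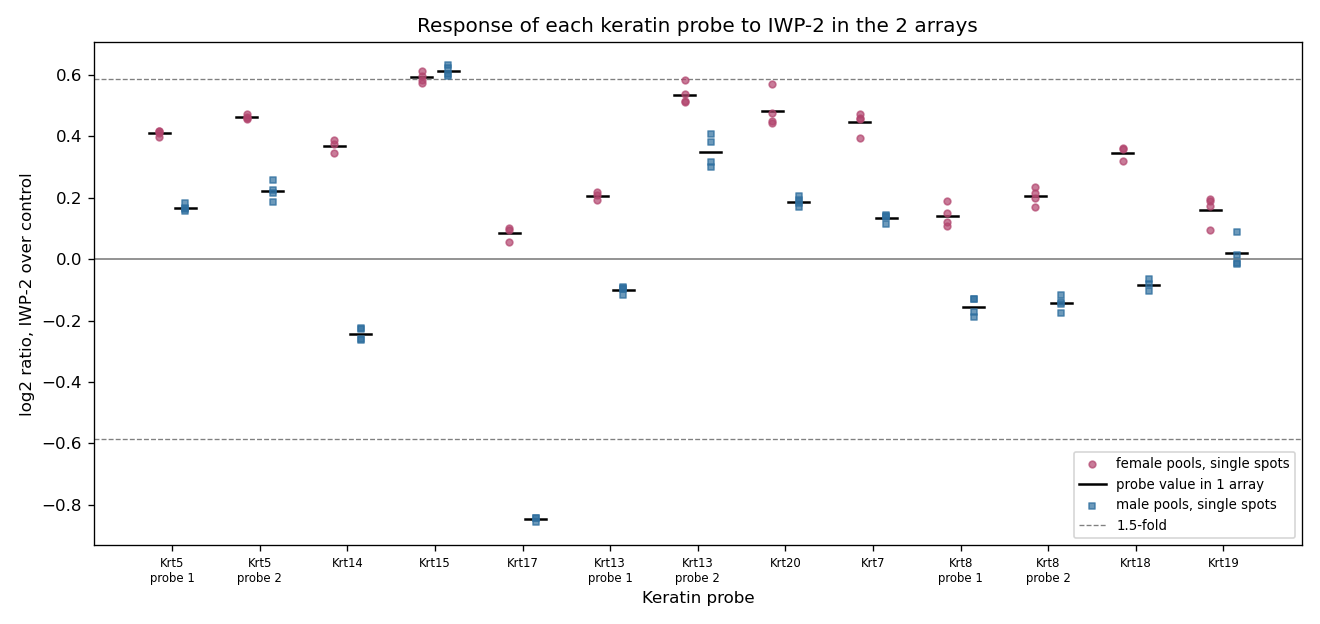
log2 ratio of IWP-2 over control for each keratin probe, with single spots of the female array (circles) and the male array (squares), the probe value in each array (black bars) and 1.5-fold changes (dashed lines). *Krt15* reaches the upper dashed line in both arrays, 6 probes lie above 0 in the female and below 0 in the male array, and *Krt17* lies below the lower dashed line in the male array.

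*Krt13*, a type I keratin of the layers below the surface, gave different values with its 2 probes. Probe 1 read 4068 and 4690 in the female control and IWP-2 pools and 5745 and 5361 in the male pools, with a mean log2 ratio of 0.05 ± 0.22 (SD, n = 2; limma adjusted p = 0.949). Probe 2 read 80.3 and 116.4 in the female control and IWP-2 pools and 108.2 and 137.9 in the male pools. Its log2 ratio was 0.54 in the female and 0.35 in the male array, with a mean of 0.44 ± 0.13 (SD, n = 2; limma adjusted p = 0.0756). This probe entered the test only through its IWP-2 signal, so that the filter depended on the change and its p supports no difference. Control and IWP-2 pools overlapped for probe 1. They did not overlap for probe 2, which for the same reason supports no difference. Probe 2 was called only when the arrays were centred on their medians in place of loess (mean log2 ratio 0.48, limma adjusted p = 0.0474). That call supports no difference either. The difference between the 2 probes was not tested, and its cause was not tested.

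*Krt20*, the keratin of superficial cells, read 5878 in the female control pool, 8216 in the female IWP-2 pool, 7243 in the male control pool and 8244 in the male IWP-2 pool. Both IWP-2 pools lay above both control pools. The log2 ratio was 0.48 in the female and 0.19 in the male array, with a mean of 0.33 ± 0.21 (SD, n = 2; limma adjusted p = 0.177). The 12 other genes of the superficial list, uroplakins among them, included 0 called in either direction by limma. Among the 14336 genes tested with the probe of highest mean signal per gene, 0.223% were called higher and 0.628% lower. At an unadjusted p under 0.05, 7 of the 12 were higher and 0 lower, against 6.07% higher and 6.4% lower among all genes tested. Their median log2 ratio was 0.48 in the female and 0.10 in the male array, against 0.00 and 0.00 for all genes. *Upk1a*, a tetraspanin of the apical plaques, had log2 ratios of 0.48 and 0.24 (limma adjusted p = 0.135), and *Grhl3*, a transcription factor of superficial cells, of 0.54 and 0.25 (limma adjusted p = 0.134). *Prom1* (-0.34 and -0.02) and *Upk3bl* (-0.04 and -0.26) were the 2 genes of the list below 0 in both arrays.

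Among the broadly made keratins, the type II chain *Krt7* read 7055 and 9603 in the female control and IWP-2 pools and 9056 and 9936 in the male pools. Its mean log2 ratio was 0.29 ± 0.22 (SD, n = 2; limma adjusted p = 0.237), and both IWP-2 pools lay above both control pools. The 2 probes of *Krt8*, the type II chain of simple epithelia, read 20146 and 16803 in the female control pool, 22201 and 19351 in the female IWP-2 pool, 23880 and 20215 in the male control pool and 21441 and 18304 in the male IWP-2 pool. Their mean log2 ratios were -0.01 ± 0.21 (SD, n = 2; limma adjusted p = 0.994) and 0.03 ± 0.25 (SD, n = 2; limma adjusted p = 0.985). *Krt18*, the type I partner of *Krt8*, read 18318 and 23281 in the female control and IWP-2 pools and 22997 and 21703 in the male pools, with a mean log2 ratio of 0.13 ± 0.30 (SD, n = 2; limma adjusted p = 0.782). *Krt19*, a type I keratin, read 18402 and 20577 in the female pools and 21098 and 21394 in the male pools, with a mean log2 ratio of 0.09 ± 0.10 (SD, n = 2; limma adjusted p = 0.769). For *Krt8* and *Krt18* the arrays went in opposite directions, and control and IWP-2 pools overlapped for *Krt8*, *Krt18* and *Krt19*.

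All 13 keratin probes had a log2 ratio above 0 in the female array, and 7 did so in the male array, *Krt13* probe 2 among them. Of the 18403 probes tested, 9316 were above 0 in the female and 9094 in the male array. With 1 probe per gene, that of highest mean signal, 10 of 10 keratins were above 0 in the female and 5 in the male array. Both IWP-2 pools read above both control pools for 5 of the 12 probes over the signal filter in both conditions, and below them for 0. The 5 were those of *Krt5* (both), *Krt7*, *Krt15* and *Krt20*. Of the 18096 probes over that filter in both conditions, 2819 had both IWP-2 pools above. Among all probes tested, 15.9% were above and 16.1% below. In 12 of the 13 the female ratio was the higher, *Krt15* being the exception, against 9632 of the 18403 probes tested. All spots kept were above 0 in one array and below 0 in the other for 6 of the 13 probes, those of *Krt8* (both), *Krt13* (probe 1), *Krt14*, *Krt17* and *Krt18*. Such opposed spots were found in 24.4% of all probes tested.

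**Figure D3:**
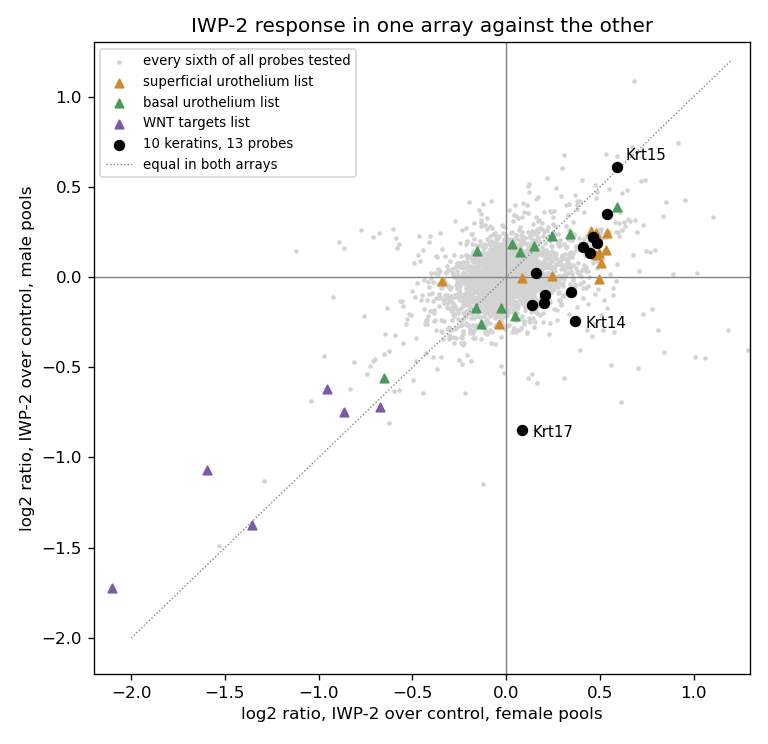
log2 ratio of IWP-2 over control in the female array (horizontal) and the male array (vertical) for the 13 keratin probes (black), genes of 3 lists (triangles) and every sixth probe of all those tested (grey), with points beyond the axes, *Lgr5* among them, not drawn. *Krt15* lies on the dotted line of equal ratios, most other keratins lie to the right of it together with the superficial list, and *Krt17* lies below 0 on the vertical axis.

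The 4 pools were also set on a common scale (Aquantile), as a description without a test, since each pool is 1 sample and the dye of the control pool differed between the arrays. All 13 keratin probes were higher in the male than in the female control pool, with a median log2 difference of 0.32. Their median difference between the IWP-2 pools was 0.02. Of the 18403 probes tested, 8451 were higher in the male control pool, with medians of -0.02 for control and -0.02 for IWP-2 pools. *Krt15* differed from the keratin medians, with a male minus female log2 difference of 0.45 between the control pools and 0.47 between the IWP-2 pools. The difference of an array ratio from the other is the difference of these 2 quantities by construction. The pan-epithelial list, with adhesion genes such as *Cdh1* and *Epcam*, was higher in the male control pool for 14 of 14 genes (median 0.28) and differed by a median of -0.01 between the IWP-2 pools. Its summed signal on the common scale was 46737 and 55335 in the female and male control pools and 53964 and 55273 in the female and male IWP-2 pools. The smooth muscle list was lower in the male control pool for 10 of 10 genes (median -0.37), with summed signals of 104116 and 86576 in the control pools and 103776 and 101551 in the IWP-2 pools. The lamina propria list was lower in the male control pool for 10 of 10 genes (median -0.20). Of the 14336 genes tested, 6596 were higher in the male control pool (median -0.01). The part of these differences in the keratin ratios was not tested beyond the scaling to the pan-epithelial median given with *Krt15*. The median log2 ratio of the pan-epithelial list was 0.21 in the female and -0.03 in the male array.

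**Figure D4:**
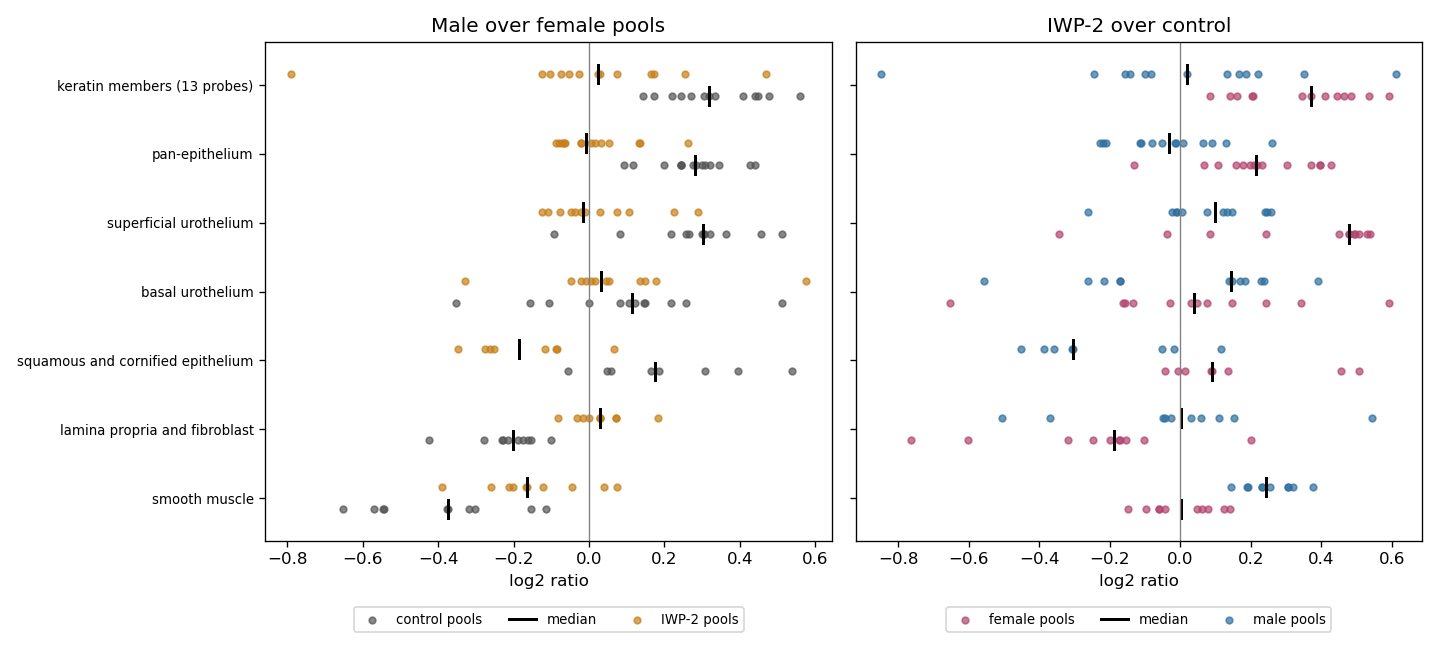
log2 ratios of the keratin probes and of the genes tested in 6 marker lists, male over female pools on the left (grey, control pools; orange, IWP-2 pools) and IWP-2 over control on the right (red, female array; blue, male array), with points for probes or genes and black bars for medians. On the left, keratins and pan-epithelial genes of the control pools lie above 0 and smooth muscle genes below 0.

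The 12 genes of the basal list, without keratins, held 0 called higher and 1 called lower, against 0.223% and 0.628% of all genes tested. The 1 that fell was *Col17a1*, a collagen of the hemidesmosomes that anchor basal keratin filaments to the basement membrane. *Col17a1* read 1083 and 688.5 in the female control and IWP-2 pools and 1156 and 785.7 in the male pools. Both IWP-2 pools lay below both control pools, with a mean log2 ratio of -0.61 ± 0.07 (SD, n = 2; limma adjusted p = 0.0253). The call was lost in 4 of 12 other settings, among them the deposited series table (limma adjusted p = 0.160) and no filter on dim probes (limma adjusted p = 0.575). At an unadjusted p under 0.05, 3 genes of the basal list were higher and 3 lower (6.07% and 6.4% of all genes tested), and the list's median log2 ratio was 0.04 in the female and 0.14 in the male array. *Trp63*, the transcription factor of basal epithelial cells, had log2 ratios of 0.24 and 0.23 (limma adjusted p = 0.197).

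Of the 15 genes of desmosomes and keratin linkers, 13 were tested and 0 were called by limma, with 1 higher and 2 lower at an unadjusted p under 0.05. Among all genes tested, limma called 0.223% higher and 0.628% lower, and 6.07% and 6.4% passed at an unadjusted p under 0.05. *Dsp*, the desmoplakin that ties keratin filaments to desmosomes, had log2 ratios of 0.03 and 0.01, and *Dsc2*, a desmosomal cadherin, of -0.41 and -0.46 (limma adjusted p = 0.0582). *Dsc3* and *Dsg3*, desmosomal cadherins of stratified epithelia, lay at the floor of 15 in all pools.

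Of 42 other keratin genes with 55 probes, 11 genes with 14 probes passed the filter on signal and 0 probes were called by limma, with 0 at an unadjusted p under 0.05. Among all probes tested, limma called 0.228% higher and 0.543% lower, and 7.48% and 5.87% passed at an unadjusted p under 0.05. The probes of 21 of these genes lay at the floor of 15 in all 4 pools. In the female array 12 of the 14 probes were above 0 and in the male array 4 were, against 9316 and 9094 of the 18403 probes tested. *Krt6a* and *Krt16*, keratins of stressed and squamous epithelia like *Krt17*, had log2 ratios of 0.09 and -0.04 in the female array and -0.36 and -0.45 in the male array. The squamous list, which holds them, had 8 genes tested and 0 called by limma, against 0.223% higher and 0.628% lower among all genes tested. At an unadjusted p under 0.05, 1 was higher and 0 lower, against 6.07% and 6.4% of all genes tested. The list's median log2 ratio was 0.09 in the female and -0.31 in the male array. In the male array these values lay below 0, as that of *Krt17* did, which rests on 1 array. A lower male than female ratio was found in all 14 other keratin probes tested and in 12 of the 13 member probes. Among all 18403 probes tested it was found in 9632. In the squamous list 1 gene was above 0 in both arrays. The cause was not tested.

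*Krt42* had a probe with a clear signal, although its other probe lay at the floor of 15 in all pools, and the former is printed because it resembles a probe of another keratin. *Krt42* (probe A_55_P2013840, chr11:100128252-100128311, minus strand) read 7511 to 9422 over the 4 pools, with log2 ratios of 0.17 and 0.03.
*Krt42*: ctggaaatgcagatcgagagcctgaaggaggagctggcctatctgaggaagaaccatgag
The *Krt42* probe matched a *Krt28* probe at 41 of 58 bases, and that *Krt28* probe lay at the floor of 15 in all 4 pools. Whether the *Krt42* probe reads the transcript it is named for was not tested.

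Among genes outside the urothelium lists, 7 of 10 WNT targets were tested, and 5 of them passed the filter on signal in both conditions. All 5 were called lower. Of the 18096 probes over the filter in both conditions, 73 were called lower. Of all genes tested, 0.223% were called higher and 0.628% lower. *Axin2* and *Lgr5* passed the filter only through the control pools, where they were higher. They were also called lower, but the filter depended on the change, so their p-values support no difference. *Axin2*, a feedback inhibitor of the pathway, had log2 ratios of -2.10 and -1.72. *Tcf7*, a transcription factor of the pathway, had log2 ratios of -1.36 and -1.37 (limma adjusted p = 0.00136). For *Wif1*, a secreted WNT antagonist, they were -1.60 and -1.07 (limma adjusted p = 0.0158). *Lgr5*, an R-spondin receptor, read 134.9 and 157.4 in the control pools and lay at 15 and 18.6 in the IWP-2 pools. In the lamina propria list 1 of 10 genes was called, *Aldh1a2*, a retinoic acid synthesis enzyme, which fell by 0.63 on the log2 scale (log2 ratios -0.76 and -0.50, limma adjusted p = 0.0409). That call was lost in 5 of 12 other settings, among them the median over spots (limma adjusted p = 0.0550) and the deposited series table (limma adjusted p = 0.615). By limma 0 genes were called among 10 of smooth muscle, 8 of endothelium, 6 of immune cells, 7 of nerve and Schwann cells, 3 of mesothelium and 14 of pan-epithelium, with 2, 0, 2, 2, 0 and 3 higher and 0, 0, 0, 2, 3 and 0 lower at an unadjusted p under 0.05, against the 6.07% and 6.4% of all genes given above. Of 12 kidney epithelium genes, 1 passed the filter on signal, and 5 were at the floor in all pools. Probes well above background made up 66.7 to 68.4% of all in a channel, 3.22 to 3.32% of spots were left out for an outlier flag, and the 2 arrays limit the precision.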

How the data were processed

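RNA from 4 pools of cultured mouse ureters was compared on 2 two-colour Agilent arrays, both on 1 slide. The deposited scanner files hold intensities that the authors' Feature Extraction software background-subtracted and dye-normalized by linear and LOWESS steps (12.2.0.7 per the file headers, 10.7.3.1 per the labels). The deposited log10 ratio of red over green was used to find which way the ratios run, and differed from the ratio of the processed signals by less than 0.001 in 100% of spots where it was not 0. As an alternative, the authors' series table was used, a score that is a signed fold change with 1 decimal. For the probes tested, 99.9% of its values other than 1 and -1 shared the sign found here. Each column's median was 1, and how the series table was centred is unknown.

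Array controls (17263 spots) and outlier-flagged spots did not enter. After loess within each array (limma 3.58.1, R 4.3.3), the mean over each probe's spots was taken, set to at least 15 and put on the log2 scale. Probes whose signal averaged over 100 in either condition were tested with limma's lmFit and eBayes on the 2 ratios, which leaves 1 residual degree of freedom (5.19 prior), with Benjamini-Hochberg adjustment over all probes tested. The study names no test for the arrays. The pools are the replicates. The variance behind each p-value combines a probe's spread between the 2 arrays with a prior drawn from all probes tested. The SE can thus exceed what the SD of the 2 ratios would give, as for *Krt15* (SD 0.01, SE 0.07). Each ratio pairs the pools of an array by construction.

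The keratins, marker lists and comparisons were chosen with earlier results of these data known. All probes of the 10 keratins are named. From each list up to 4 genes that passed the test by the probe of highest mean signal were named, by size of change. *Upk1a*, *Upk3bl*, *Prom1*, *Grhl3*, *Trp63*, *Dsp*, *Dsc2*, *Dsc3*, *Dsg3*, *Cdh1*, *Epcam*, *Krt6a*, *Krt6b*, *Krt16* and *Krt42* were chosen after their values were seen. The limma steps were also run on simulated data. Columns of other per-sample values numbered 0. Sequences were read from the array files.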

Additional observations from a re-analysis of the deposited data

Results flagged for a closer look

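For 6 keratin probes all spots kept were above 0 in the female array and below 0 in the male array. The female log2 ratio exceeded the male one by 0.93 for *Krt17*, by 0.61 for *Krt14*, by 0.43 for *Krt18*, by 0.31 for *Krt13* probe 1, and by 0.30 and 0.35 for probes 1 and 2 of *Krt8*. With 1 array of each sex and dye orientation these differences were not tested.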

How the results depend on the processing

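The number of keratin probes called higher was 1 and became 2 with median centring (*Krt15* and *Krt13* probe 2). *Krt13* probe 2 entered the main test only through its IWP-2 signal, so its call supports no difference. The number became 0 without the filter on dim probes and with the filter on probes well above background. It was also 0 with 4 separate channels in place of ratios (no replicate block) and with scaling to the pan-epithelial median. The last setting was chosen after seeing the data. The mean log2 ratio of *Krt15* ranged from 0.51 to 0.65 over the 12 settings with a test, and its adjusted p from 0.0141 to 0.691. Over all probes, limma called 0 without the filter on dim probes and with the filter on probes well above background, and 9 with 4 separate channels, against 142 in the main setting and 1776 on the deposited series table, whose values have 1 decimal. The number called higher over all probes was 98 with normexp and 127 with median centring. The number of keratin probes called lower was 0 in every setting with a test. The keratin median was 0.13, 0.04 with scaling to the pan-epithelial median and, leaving out 1 array, 0.02 to 0.37. These medians include *Krt13* probe 2. The number past the study's filter upwards was 1 and became 0 at 2-fold and with normexp, and it was 1 to 1 leaving out 1 array. The number past it downwards was 0, and 0 to 1 leaving out 1 array, where it was *Krt17* without the female array. With 1 array left no test was possible. *Krt15* was called in 8 of 12 other settings, *Col17a1* in 8 and *Aldh1a2* in 7. The cause of these changes was not tested.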
